A study of Mus musculus with 8 samples.

Results

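The genes of the phagocyte NADPH oxidase were followed in embryonic mouse brain with and without a Cre that inactivates Rest, the gene of a transcriptional repressor of neuronal genes. The members are Cybb, Cyba, Ncf1 and Ncf4, which encode subunits of the oxidase of phagocytes, and Nox4, which encodes a related oxidase of other tissues. They were taken by name, as every probe set annotated to one of these 5 genes, which gave 10 of 45037 probe sets and 5 of 18193 genes. Of these 5 genes, Cyba and Ncf1 rose in Cre+, Rest GTi/GTi brain, by 1.82 and 1.76 fold on the scale of the intensity plus 16. Cybb lay above every control on its brightest probe set, at dim levels with no detection call, but did not pass the test, and neither did Ncf4 or Nox4.

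Brains were taken at E12.5 from C57/BL6 embryos in both groups, and total RNA was read on 1-colour Affymetrix arrays, on which a probe set is a group of short probes for 1 transcript. The 4 Cre+, Rest GTi/GTi arrays hold embryos homozygous for an inverted gene trap in Rest together with a Nestin Cre transgene, which turns the trap back and stops Rest transcription in Nestin-positive neural progenitors and their progeny. The 4 control arrays hold Rest GTi/GTi embryos with the same inverted trap and no Cre, so Cre and the loss of REST cannot be told apart. Microglia and macrophages do not descend from the neural progenitors in which Nestin drives Cre. The labels call the 4 arrays of a group biological replicates. Whether an array holds 1 embryo or several is not stated.

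The deposited intensities were linear, with array medians from 40.9 to 68. They were brought to 1 distribution, and 16 was added before log2, which shrinks the fold changes of dim probe sets. Rest read 84.4 to 217 on the Cre+ arrays and 170 to 272 on the controls, which overlapped (log2 fold change -0.51, two-sided exact permutation p = 0.143). By Xist and Eif2s3y, 2 controls (replicates 2 and 3) had the signal of females, and the other 6 arrays that of males. Cre+ replicates 1 and 2 stood apart by a signal of mesenchyme, with the collagen gene Col3a1 at 4864 and 4571 against 115 to 555 on the other 6 arrays. The labelled tissue was borne out by its markers. Sox2 and Tubb3 were bright on every array, and 0 of 8 progenitor and 0 of 8 neuron markers were called by limma at an adjusted p under 0.05 (0 of each at an unadjusted p under 0.05).

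The phagocyte oxidase moves electrons from NADPH across a membrane to oxygen, which makes superoxide in a phagosome or outside the cell. Its membrane core is a pair of proteins, the catalytic subunit gp91phox (also called NOX2) from Cybb and its partner p22phox from Cyba. The core is silent until cytosolic proteins join it. They include the organiser p47phox from Ncf1, p40phox from Ncf4 and a Rac GTPase. Neutrophils, macrophages and microglia are the cells best known for it. NOX4 is a relative of NOX2 that also pairs with p22phox but needs none of the cytosolic subunits, and is known from kidney, vessel wall and fibroblasts.

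In the mouse genome (GRCm38.p6) the members lie apart. RefSeq places Cybb on chromosome X from 9435252 to 9487766, Cyba on chromosome 8 from 122424771 to 122432940, and Ncf1 on chromosome 5 from 134220053 to 134229628. Ncf4 lies on chromosome 15 from 78244164 to 78262582 and Nox4 on chromosome 7 from 87244430 to 87398710. Where the probes lie within the transcripts is not known here. The 250 bases before the transcript start of 4 members, from RefSeq, are shown because Cyba and Ncf1 rose together and Nox4 did not. Each is written 5′ to 3′ on the strand of the gene, and the capitals mark the letters GGAA or their reverse complement TTCC, the core that ETS factors such as PU.1 read. The windows are chrX:9469325-9469574 (minus strand) for Cybb, chr8:122432941-122433190 (minus strand) for Cyba, chr5:134229626-134229875 (minus strand) for Ncf1 and chr7:87246399-87246648 (plus strand) for Nox4. Those of Cybb and Nox4 lie inside the gene spans given above and that of Ncf1 overlaps the end of its span, so the transcript starts used are not the outermost ends of these genes.
Cybb: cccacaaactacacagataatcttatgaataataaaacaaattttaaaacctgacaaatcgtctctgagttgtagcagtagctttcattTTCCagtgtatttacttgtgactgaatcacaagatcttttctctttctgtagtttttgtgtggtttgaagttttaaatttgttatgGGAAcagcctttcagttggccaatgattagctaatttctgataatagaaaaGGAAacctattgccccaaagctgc
Cyba: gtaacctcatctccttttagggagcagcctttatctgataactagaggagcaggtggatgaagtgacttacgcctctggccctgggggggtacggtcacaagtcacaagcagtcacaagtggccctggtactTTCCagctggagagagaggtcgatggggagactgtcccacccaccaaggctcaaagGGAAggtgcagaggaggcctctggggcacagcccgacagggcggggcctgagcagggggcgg
Ncf1: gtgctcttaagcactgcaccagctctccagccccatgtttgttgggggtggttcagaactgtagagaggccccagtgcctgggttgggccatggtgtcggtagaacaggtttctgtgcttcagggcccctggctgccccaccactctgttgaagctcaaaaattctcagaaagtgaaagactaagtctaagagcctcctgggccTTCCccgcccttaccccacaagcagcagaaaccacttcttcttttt
Nox4: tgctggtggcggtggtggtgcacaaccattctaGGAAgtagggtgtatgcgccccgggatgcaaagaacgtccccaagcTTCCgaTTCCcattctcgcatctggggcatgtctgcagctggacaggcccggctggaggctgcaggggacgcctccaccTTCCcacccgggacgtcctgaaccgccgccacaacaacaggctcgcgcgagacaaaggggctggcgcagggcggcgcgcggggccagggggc
The core occurs 3 times before Cybb, 2 times before Cyba, 1 time before Ncf1 and 4 times before Nox4. It occurs in 93.4% of all 32851 windows of this length in the table, with a median of 3. The longer string GAGGAA or its reverse complement TTCCTC, which contains the core, is in 0 of these 4 windows and in 23.3% of all. The bases are 34% G or C before Cybb and 67.2% before Nox4, against a median of 52.4% over all windows. A match of letters is a description of the sequence only.

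Cyba, the membrane partner shared by NOX2 and NOX4, rose in Cre+, Rest GTi/GTi brain. Its 1 probe set, 1454268_a_at, had a normalized intensity of 237, 198, 185 and 183 on Cre+ replicates 1 to 4. On control replicates 1 to 4 it read 94.8, 106, 109 and 103. The groups did not overlap, and the lowest Cre+ array stood well clear of the highest control. Means over the 4 arrays were 201 ± 25.0 (SD) with Cre and 103 ± 5.96 (SD) without, a difference which limma put at 0.86 on the log2 scale (95% interval 0.65 to 1.07, standard error 0.09, adjusted p = 0.0133). By p, Cyba stood at rank 25 of all genes. In RNA of whole brain, more cells of a type and more RNA per cell cannot be told apart. The call was lost without Cre+ replicate 2 (adjusted p = 0.068 from limma) or without control replicate 1, 2, 3 or 4 (0.0601, 0.0567, 0.0536 and 0.0579), while the log2 fold change stayed between 0.78 and 0.90 when any 1 array was left out.

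Cybb, the catalytic subunit NOX2, was dim. On its brightest probe set, 1436778_at, it read 18.5, 18.0, 18.2 and 17.3 on Cre+ replicates 1 to 4, and 7.81, 11.9, 5.56 and 5.83 on control replicates 1 to 4. Every Cre+ array lay above every control, and the Cre+ arrays lay within a narrow range. The mean was 18.0 ± 0.49 against 7.77 ± 2.91 (SD, n = 4). The log2 fold change was 0.52 (standard error 0.09, 95% interval 0.32 to 0.73), and Cybb did not pass the test (adjusted p = 0.144 from limma, rank 68 of all genes by p). The two-sided exact permutation p was 0.0286, the smallest that 4 arrays against 4 allow, and 2.48% of all genes had every Cre+ array above every control (2.15% had every one below). With Cyba and Ncf1, such genes were 3 of 5 members, and 0 of 5 lay below. Since its mean lay under the added constant, the value moved with that constant, to 1.17 with a constant of 1 and 0.24 with a constant of 50, and was called with neither. Cybb is X-linked, and the 2 female controls (11.9 and 5.56) overlapped the 2 male controls (7.81 and 5.83). No detection call tells whether these levels stood above background.

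The other probe sets of Cybb did not separate the groups. The next brightest, 1436779_at, read 13.6 to 16.2 on the Cre+ arrays and 3.28 to 15.3 on the controls, a log2 fold change of 0.22 (95% interval -0.11 to 0.55). The dimmest, 1422978_at, read 3.43 to 8.10 and 1.16 to 12, with a log2 fold change of 0.07. By mean level, the 3 probe sets of Cybb stood at the percentiles 27.0, 26.9 and 14.0 of all probe sets.

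Ncf1, which encodes the organiser p47phox, rose together with Cyba on its brightest probe set, 1456772_at. It read 59.2, 59.7, 66.9 and 50.5 on Cre+ replicates 1 to 4 and 25.1, 30.0, 24.5 and 26.9 on control replicates 1 to 4. The groups did not overlap. Means over the 4 arrays were 59.1 ± 6.71 (SD) with Cre and 26.6 ± 2.51 (SD) without, and limma put the change at 0.81 on the log2 scale (95% interval 0.62 to 1.01, standard error 0.09, adjusted p = 0.0130). Cyba and Ncf1 are thus 2 of 5 members called, both higher and 0 lower, where 0.214% of all genes tested were called higher and 0.011% lower. At an unadjusted p under 0.05, 3 of 5 members passed (Cyba, Ncf1 and Cybb), against 6.97% of all genes. With the methods' t-test 0 of 5 were called (adjusted p = 0.0753 for Cyba and 0.0665 for Ncf1 with equal variances). The call of Ncf1 was lost without Cre+ replicate 1 or 2 (adjusted p = 0.0551 and 0.0676 from limma) or without control replicate 1, 3 or 4 (0.0593, 0.0606 and 0.0543). The log2 fold change without any 1 array ran from 0.77 to 0.87.

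The other 2 probe sets of Ncf1, 1451767_at and 1425609_at, were near the floor of the array and did not pass. They read 2.12 to 24.5 and 2.42 to 11.0 on the Cre+ arrays, against 1.84 to 13.0 and 1.19 to 7.09 on the controls. Their log2 fold changes were 0.16 (95% interval -0.45 to 0.76) and 0.30 (95% interval -0.02 to 0.63). With the mean of its 3 probe sets, Ncf1 had a log2 fold change of 0.43 and was not called (adjusted p = 0.364 from limma).

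Ncf4, which encodes the regulatory subunit p40phox, varied within both groups. Its 1 probe set, 1418465_at, read 58.6, 47.3, 26.4 and 34.2 on Cre+ replicates 1 to 4 and 16.7, 30.6, 17.2 and 38.3 on control replicates 1 to 4. The groups overlapped, since control replicate 4 lay above Cre+ replicates 3 and 4. In limma the log2 fold change was 0.47 (95% interval -0.04 to 0.98, standard error 0.22, adjusted p = 0.754). It was 0.76 with Cre+ replicates 1 and 2 alone and 0.18 with Cre+ replicates 3 and 4 alone. Within each group, the 2 arrays with the most Ncf4 were the 2 with the most Col3a1. These were Cre+ replicates 1 and 2 (Col3a1 at 4864 and 4571, against 232 and 135 on replicates 3 and 4). Among the controls they were replicates 4 and 2 (Col3a1 at 555 and 412, against 117 and 115). The match did not hold over all arrays. Cre+ replicate 4 had more Ncf4 than Cre+ replicate 3 (34.2 against 26.4) with less Col3a1 (135 against 232). It also had more Ncf4 than control replicate 2 (30.6), where Col3a1 read 412. Mrc1, a receptor of macrophages at the borders of the brain, was chosen after its values were seen. It read 234 and 131 on Cre+ replicates 1 and 2, and 27.6 and 33.9 on replicates 3 and 4. On the controls it read 5.69 to 29.2. Control replicate 4 was the highest control for both Mrc1 and Ncf4. Control replicate 2 lay above control replicate 1 for Ncf4 but below it for Mrc1 (12.1). The part of such macrophages in the Ncf4 values was not tested.

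Nox4, the oxidase outside phagocytes, did not pass the test. On its brightest probe set, 1451827_a_at, it read 45.6, 49.3, 34.2 and 52.6 on Cre+ replicates 1 to 4 and 54.9, 46.6, 53.8 and 53.6 on control replicates 1 to 4. The groups overlapped, with the lowest value on Cre+ replicate 3. In limma the log2 fold change was -0.16 (95% interval -0.40 to 0.08, standard error 0.11, adjusted p = 0.832), and without Cre+ replicate 3 it was -0.07. A further probe set, 1419161_a_at, read 12 to 24.2 on the Cre+ arrays and 13.2 to 17.8 on the controls, with a log2 fold change of 0.07 (95% interval -0.24 to 0.38). The 2 probe sets differed in sign, and both intervals leave out a rise of the size seen for Cyba.

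**Figure D1:**
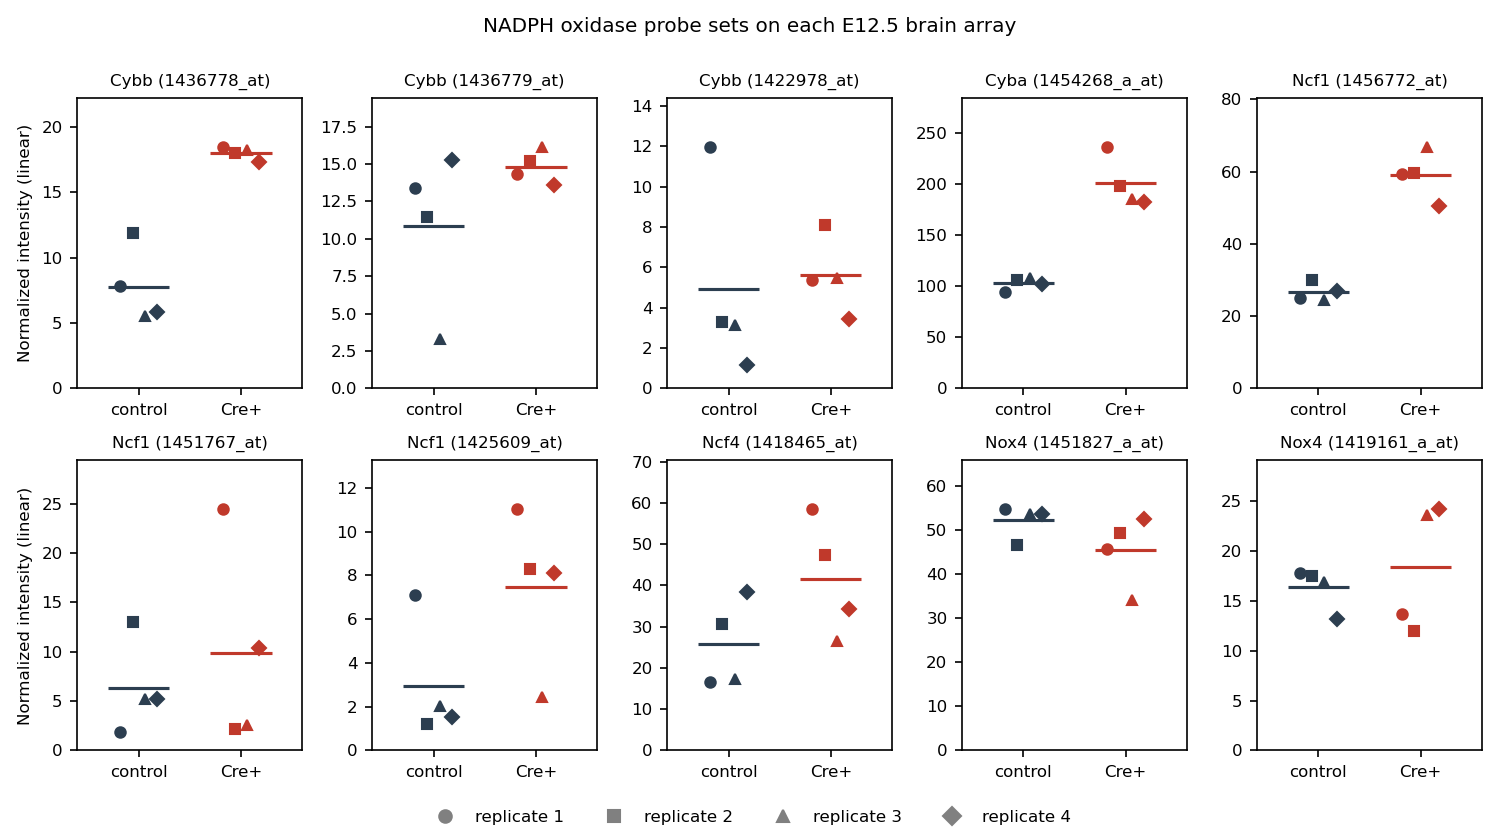
Normalized intensity (linear scale, from 0) of the 10 probe sets of the 5 genes on each array, with control arrays in dark blue and Cre+, Rest GTi/GTi arrays in red. Each symbol is 1 replicate, and each line is a group mean. Cyba and the brightest probe sets of Ncf1 and Cybb have every Cre+ array above every control, and the other 7 probe sets overlap.

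The change of the phagocyte genes was set against that of Nox4 within each array. The log2 ratio of Cyba to Nox4 was higher by 1.02 in Cre+ brain than in controls. The same change of the ratio to Nox4 was 0.97 for Ncf1, 0.68 for Cybb and 0.63 for Ncf4. The ratios share Nox4, which adds the same amount to each. For Cyba, Ncf1 and Cybb, whose own levels did not overlap either, the 4 Cre+ arrays lay above all controls by this ratio. So did 5.08% of the genes other than Nox4. The two-sided exact permutation p was 0.0286 for each, and 0.0381 adjusted over the 4 pairs compared alone. Over all probe sets, Cybb by its own level did not pass (adjusted p = 0.144 from limma). The levels of these 3 genes already separated the groups, so their ratios are no further evidence of a rise. For Ncf4 the groups overlapped (two-sided exact permutation p = 0.0857).

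Of the partners and regulators of the oxidase, 12 genes were measured, and limma called 0 at an adjusted p under 0.05 (at an unadjusted p under 0.05, 3 higher and 0 lower; with the methods' t-test, 0). Of all genes, 6.97% passed limma at that unadjusted threshold in either direction. These 12 genes had a median change of 0.11 (log2), against -0.0014 over all genes, with 9 above 0 and 3 below. The median was 0.17 without Cre+ replicate 1, 0.05 without Cre+ replicate 3 and 0.06 without control replicate 2, and it was 0.03 without _s_at, _x_at and _a_at probe sets and 0.04 with the mean of probe sets. Rac2, the Rac GTPase of blood cells, read 48.1, 60.8, 60.8 and 58.9 on Cre+ replicates 1 to 4 and 28.8, 22.0, 42.3 and 30.4 on the controls. Its groups did not overlap, with every Cre+ array higher, which held for 2.48% of all genes. For Rac2, limma gave 0.66 on the log2 scale (standard error 0.13, adjusted p = 0.244). Rac1, the GTPase found in all tissues, gave -0.08 (95% interval -0.30 to 0.14). Arhgdib, a regulator of small GTPases in blood cells, read 125 to 204 on the Cre+ arrays and 67.6 to 91.0 on the controls, and limma gave 0.88 (standard error 0.15, adjusted p = 0.141). It was called with Cre+ replicates 1 and 2 alone. Cybc1, a chaperone of the membrane core, gave -0.05 (95% interval -0.22 to 0.12), and the kinases Pik3cg and Prkcd gave 0.28 and 0.18.

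Genes listed with other NADPH oxidases gave no call. Of 10 listed, 6 were measured, of which Duox1 alone encodes an oxidase, and the other 4 were not analysed here. By limma 0 were called (at an unadjusted p under 0.05 also 0, and 0 with the methods' t-test), with a median log2 fold change of -0.02. Duox1, a dual oxidase of epithelia, and its maturation factors Duoxa1 and Duoxa2 had means under the added constant. Duox1 gave -0.26 (95% interval -0.58 to 0.06) and Duoxa2 -0.15. Noxo1, an organiser related to p47phox, gave 0.14. Noxred1, which is in the list but is not a NOX or DUOX subunit, gave -0.07. Poldip2, a protein that binds p22phox, gave 0.15 (95% interval -0.05 to 0.34).

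**Figure D2:**
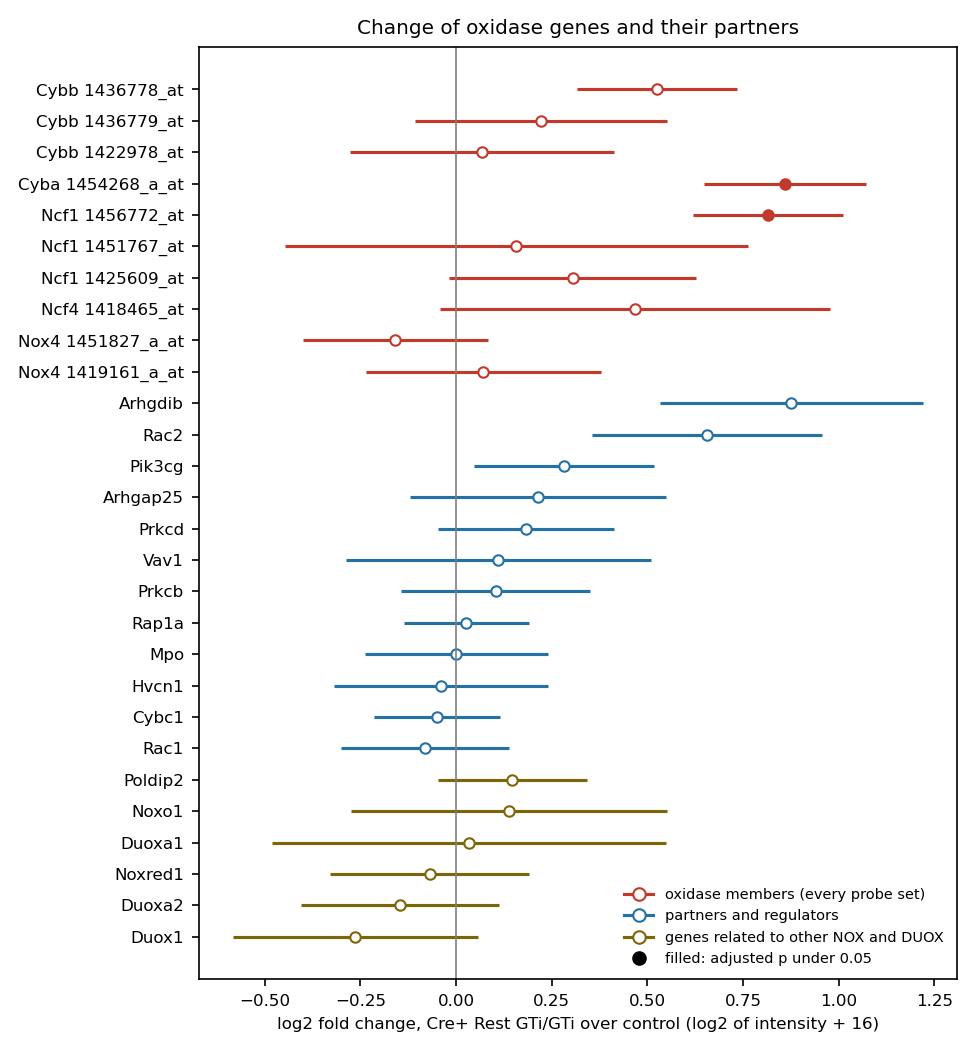
Log2 fold change in Cre+, Rest GTi/GTi over control brain, on the scale of the intensity plus 16, for the 10 probe sets of the 5 genes (red), 12 partners and regulators (blue) and 6 genes listed with other NOX and DUOX enzymes (brown). Bars are 95% intervals from limma with 4 arrays against 4, and filled points passed an adjusted p of 0.05. Filled points stand for Cyba (0.86) and for the brightest probe set of Ncf1 (0.81), and no partner is filled.

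Enzymes that remove superoxide and peroxide, listed together with genes of the antioxidant NRF2 pathway, stayed near the control level as a list. Of 24 listed genes 21 were measured, and limma called 0 (at an unadjusted p under 0.05, 2 higher and 0 lower; with the methods' t-test, 0). The share of all genes that passed limma at that unadjusted threshold was 6.97%. For the list, the median log2 fold change was 0.04, and -0.01 after scaling every array to a common median. Gpx3, a secreted glutathione peroxidase, had every Cre+ array (174 to 217) above every control (147 to 152), as did 2.48% of all genes. For Gpx3, limma gave 0.35 (standard error 0.08, adjusted p = 0.337). Hmox1, the inducible heme oxygenase, read 23.8 to 36.9 against 10.8 to 24.4, and gave 0.43 (adjusted p = 0.644). Nfe2l2, which encodes the antioxidant regulator NRF2, gave 0.27 (95% interval -0.15 to 0.69).

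Transcription factors of the myeloid lineage also gave no call. Of 12 listed, 10 were measured, and limma called 0 (at an unadjusted p under 0.05, 2 higher and 1 lower; with the methods' t-test, 0), with a median log2 fold change of 0.25. That median was 0.38 with Cre+ replicates 1 and 2 alone and 0.08 with Cre+ replicates 3 and 4 alone. It was 0.14 with Eif2s3y as a covariate. The unadjusted threshold was passed by 6.97% of all genes in limma. Spi1, which encodes PU.1, read 27.1 to 36.6 on the Cre+ arrays and 17.2 to 34.5 on the controls, and gave 0.06 (95% interval -0.27 to 0.39). Irf8, a factor that microglia and macrophages need, read 37.5, 35.4, 37.5 and 38.3 on Cre+ replicates 1 to 4 and 9.94, 28.1, 29.6 and 22.6 on the controls. Its groups did not overlap, with every Cre+ array higher, as for 2.48% of all genes. For Irf8, limma gave 0.50 (standard error 0.17, adjusted p = 0.614). Cebpa, a factor of myeloid precursors, gave 0.83 (standard error 0.20, adjusted p = 0.387), with 29.8 to 53.2 on the Cre+ arrays and 8.20 to 28.1 on the controls. Tal1, a factor of blood and of some neurons, had every Cre+ array below every control, as did 2.15% of all genes. Its log2 fold change was -0.22 (adjusted p = 0.675 from limma). Runx1 gave 0.48 (95% interval -0.22 to 1.19).

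Markers of cells that can hold these transcripts moved as follows. Of 17 measured markers of microglia and macrophages, 9 were called higher and 0 lower, against 0.214% and 0.011% of all genes. In 14 every Cre+ array lay above every control, against 2.48% of all genes. The summed intensity of the 17 markers was 2525 to 2810 on the Cre+ arrays and 947 to 1091 on the controls. Csf1r read 591 to 629 against 193 to 249, and 1 marker, Itgam, was under the added constant. With the control mean at 0, the log2 mean of the list was 1.11, 1.09, 1.11 and 0.97 on Cre+ replicates 1 to 4 and -0.08 to 0.09 on the controls. The part of these cells in the change of Cyba and Ncf1 was not tested. Neutrophils, phagocytes of the blood that are rich in the oxidase, were looked for by 13 measured markers, of which limma called 0 (0 at an unadjusted p under 0.05) and 7 had means under the added constant. The 3 brightest overlapped between the groups. Prtn3, a protease of granules, read 103 to 140 on the Cre+ arrays and 110 to 146 on the controls, Mmp9 read 70.6 to 95 and 62.6 to 78.7, and Csf3r, the receptor for G-CSF, read 6.53 to 56.2 and 4.64 to 22.5. Of the dim ones, S100a9 read at most 4.28 and Elane at most 5.66 on any array, while S100a8 read 24.6 and 16.6 on Cre+ replicates 1 and 2 and at most 8.69 elsewhere. The summed intensity of the list was 304 to 400 on the Cre+ arrays and 280 to 320 on the controls. Of 7 measured lymphocyte markers all had means under the added constant.

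Mesenchyme split the Cre+ arrays. With the control mean at 0, the log2 mean of 12 markers was 2.24, 3.47, -0.03 and -0.33 on Cre+ replicates 1 to 4. Of these 12, limma called 0 (1 at an unadjusted p under 0.05, against 6.97% of all genes). Their summed intensity was 539 to 14400 on the Cre+ arrays and 512 to 1356 on the controls. That of 10 endothelial markers was 1083 to 1734 against 939 to 1067, and that of 8 pericyte markers 1891 to 2620 against 1690 to 1854. With Cre+ replicates 3 and 4 alone, the arrays without the mesenchyme signal, the log2 fold change was 0.75 for Cyba, 0.80 for Ncf1 and 0.51 for Cybb, and none was called (adjusted p = 0.112, 0.216 and 0.534 from limma). That fit called 0 of all genes. Cre+ replicates 3 and 4 also had the highest log2 mean of the hindbrain Hox genes, at 2.19 and 1.34 with the control mean at 0. Against the 2 male controls alone, Cyba gave 0.91 and Ncf1 0.84, and neither was called (adjusted p = 0.203 and 0.177 from limma).

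**Figure D3:**
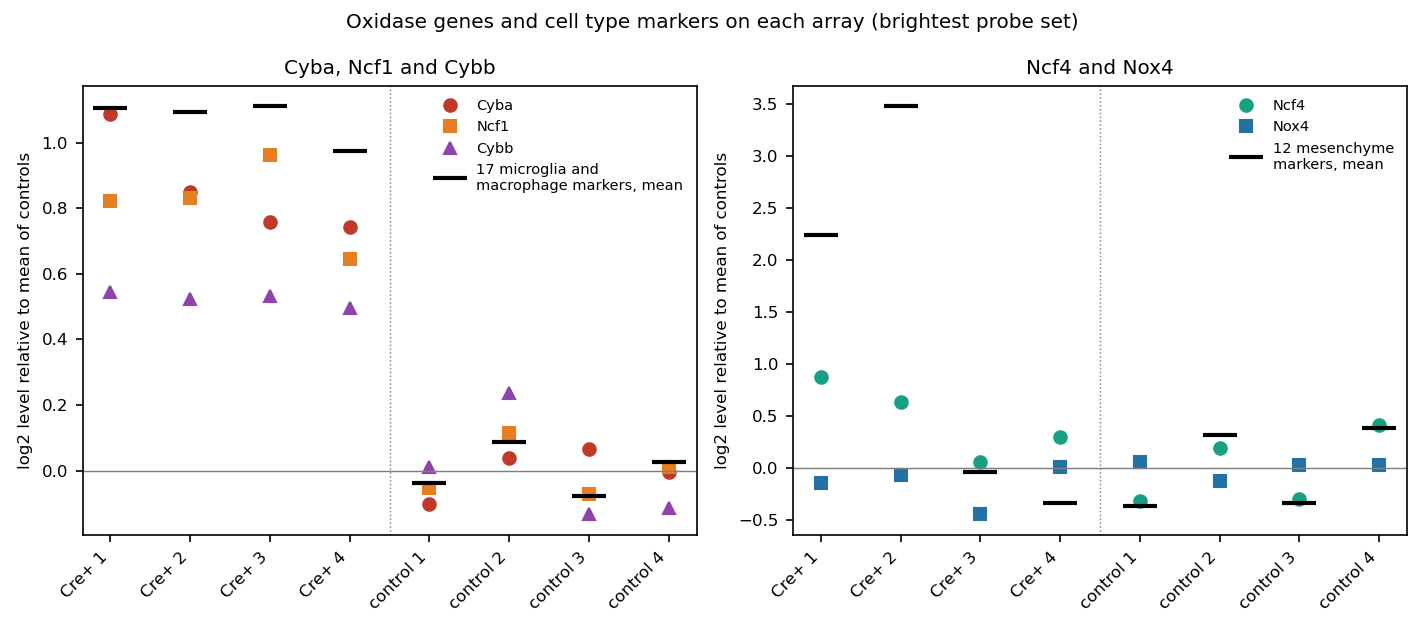
Log2 level per array with the control mean set to 0, on the scale of the intensity plus 16, for Cyba, Ncf1 and Cybb with the mean of 17 microglia and macrophage markers (left) and for Ncf4 and Nox4 with the mean of 12 mesenchyme markers (right). The marker mean on the left is 0.97 to 1.11 on the Cre+ arrays, and Cyba, Ncf1 and Cybb lie above every control there. On the right, Ncf4 is highest on Cre+ replicates 1 and 2, where the mesenchyme mean is 2.24 and 3.47.

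The genes whose profile over the 8 arrays was most like that of Cyba, among 10693 other genes with a mean intensity of at least 64, were Ctsb, Lgmn, Grn, Rab32 and Sesn2. Likeness was the root mean square difference of log2 levels relative to the controls, which was 0.12, 0.12, 0.12, 0.13 and 0.18. For Ncf1 the nearest were Lgmn, Ctsb, Ctsd, Cyba and Grn, at 0.10, 0.11, 0.13, 0.14 and 0.14. Ctsb, Ctsd and Lgmn encode lysosomal proteases and Grn the precursor of granulins. For Grn the change was 0.83 (log2), which missed the threshold (adjusted p = 0.0525 from limma). Ctsb had a log2 fold change of 0.75, Lgmn 0.81 and Ctsd 0.77, and all 3 passed the test. Rab32, a small GTPase of lysosome-related organelles, gave 0.70 and did not pass (adjusted p = 0.0562 from limma). Sesn2, which the authors of the study name as a p53 target, gave 0.78 and did not pass either (adjusted p = 0.0628 from limma). All values share the same 8 arrays. Genes picked for likeness to a called member have a change near its own by that choice, so their calls are no separate support. Ncf1, with a mean of 42.9, lay below the limit of 64 and could not enter the list of Cyba.

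**Figure D4:**
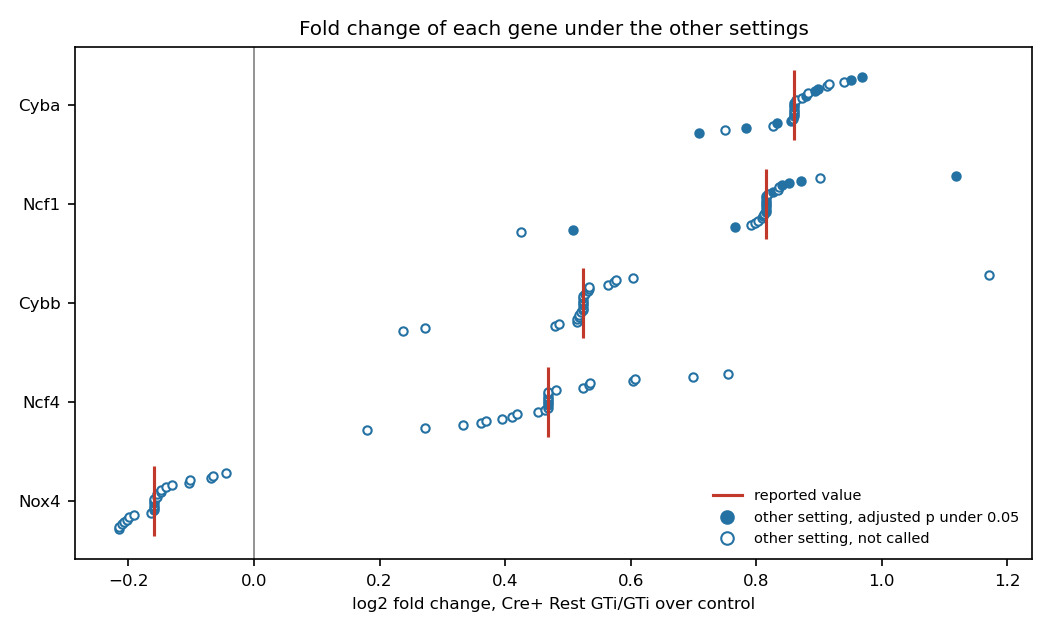
Log2 fold change of the brightest probe set of each gene (or the mean of its probe sets) under 25 or 26 other settings. Red lines mark the reported values and blue points the other settings, filled where the adjusted p was under 0.05. Cyba and Ncf1 lie above 0 throughout and are filled under 13 settings each, Cybb and Ncf4 lie above 0 and Nox4 below 0 throughout, and none of these 3 is filled.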

How the data were processed

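Total RNA from E12.5 brain was hybridised by the authors to Affymetrix mouse arrays. Per their methods, arrays were normalized by RMA (no version is named in the labels), moved to log2 and compared by a t-test, with p-values adjusted after Benjamini and Hochberg. The deposited table, however, holds linear intensity with unequal distributions between arrays, and which step made it is not stated. Here 64 Affymetrix control probe sets were left out, arrays were quantile normalized, 16 was added and log2 taken, and 45037 probe sets were tested with limma 3.58.1 in R 4.3.3 (lmFit, eBayes, Benjamini-Hochberg over all). The 5 members and the gene lists were chosen with earlier results of these data known. Each gene is represented by its brightest probe set. A single gene is named for 34945 probe sets, more than 1 for 932, and no gene for 9160. The mean of 30.6% of probe sets lay under the added constant. No detection call is used here, and the number of arrays limits the precision. The p-values set the difference between the groups against the spread between these arrays. The paper lists the groups as littermates, but no litter is given for any array here.

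The named genes are all members, fixed partners (Rac1, Rac2, Cybc1, Spi1, Irf8), every called gene and up to 3 more of each pathway list by p, the 5 genes most like a called member, and the 3 brightest markers of each cell type list. Mrc1, S100a8, S100a9, Elane, Itgam, Duoxa1, Noxo1 and Noxred1 fall outside this rule and were picked with their values in view. The test was tried on simulated data. As alternatives, a t-test, for which the methods give no variance setting, was run on the values scaled here with equal and with unequal variances. The limma fit was repeated with a trend and robust fit, a filter at a mean of 32 and constants of 1 and 50. It was also run with a common median, cyclic loess, no scaling, the mean of probe sets, and leaving out less specific probe sets. Further fits used a replicate block, array weights, Eif2s3y as a covariate or the 2 male controls. Others used the Cre+ replicates 1 and 2 or 3 and 4 alone, or left out each array. Leaving out the _s_at and _x_at probe sets alone was added after the values were seen. Of the other lists, limma called 0 of 10 endothelial, 0 of 8 pericyte, 0 of 8 erythroid and 0 of 10 hindbrain Hox genes. At an unadjusted p under 0.05 from limma, 2, 4, 0 and 0 were higher and 0 lower, against 6.97% of all genes. With the control mean at 0, the log2 mean of the Hox genes was -0.54, 0.68, 2.19 and 1.34 on Cre+ replicates 1 to 4. It was 0.79, -0.34, -0.42 and -0.04 on control replicates 1 to 4. The part of hindbrain tissue in these values was not tested.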

Additional observations from a re-analysis of the deposited data

Results flagged for a closer look

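In 120 sets of 4 arrays of a group, 9 had 1 array far from the other 3 (by Dixon's test at the 95% level). Chance gives about 1 in 20. The sets cover the member probe sets, the genes taken from the lists by the rule above, and Rest, Xist, Eif2s3y, Col3a1 and Csf1r. Genes named outside that rule, and the genes other than members that were most like Cyba or Ncf1, were not tested in this way. Among the members, control replicate 2 read 46.6 on the brightest probe set of Nox4 and the other controls 53.6 to 54.9, and control replicate 1 read 7.09 on the dimmest probe set of Ncf1 and the others 1.19 to 2.05. Cre+ replicate 1 read 48.1 for Rac2, below the other Cre+ arrays (58.9 to 60.8) and above every control. Control replicate 1 read 17.2 for Spi1 (others 31.2 to 34.5), 189 for Prkcd (203 to 205) and 2.26 for Ms4a1, a marker of B cells (12 to 14). It also read 173 for Hoxb3, a gene of the hindbrain (6.9 to 12.8). Hoxb3 varied among the Cre+ arrays too, with 1.84, 179, 746 and 434 on Cre+ replicates 1 to 4. Cre+ replicate 2 read 3.05 for Duoxa2 (others 9.04 to 9.57), and control replicate 2 read 200 for Esam, an adhesion protein of endothelium (176 to 178). The values of Ms4a1, Duoxa2 and that probe set of Ncf1 lie under the added constant.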

How the results depend on the processing

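Cyba, Ncf1, Cybb and Ncf4 lay above 0 and Nox4 below 0 under every alternative that gave a value. Cyba ran from 0.71 to 0.97 (adjusted p = 0.00479 to 0.67 from limma or the t-tests) and Ncf1 from 0.43 to 1.12 (adjusted p = 0.00442 to 0.611). The 2 members called (of 5 genes, and 2 of 10 probe sets) became 0 with either t-test, with unscaled arrays or with a replicate block. They also became 0 against the 2 male controls, with a covariate for Eif2s3y or with Cre+ replicates 3 and 4 alone. They became 1 with the mean of probe sets (Cyba) or without _s_at, _x_at and _a_at probe sets (Ncf1, since Cyba and Nox4 then have no probe set), and 0 to 2 when 1 array was left out. Over all genes the 41 calls became 14 with equal and 0 with unequal variances, 2 with no scaling, 26 with a constant of 1, 14 with Eif2s3y, 7 against the male controls, 0 with Cre+ replicates 3 and 4 alone, 89 with replicates 1 and 2 alone, 0 with the replicate block and 21 to 31 when 1 array was left out. Same-numbered arrays showed no likeness (residual correlations from -0.13 to 0.0068, and 0 of 8 arrays closest to its own number). With 4 arrays in each group and other differences between arrays, this cannot exclude a pairing by replicate number. The replicate block, which also uses up degrees of freedom, gave adjusted p = 0.261 for Cyba and 0.23 for Ncf1 from limma. Among partners, 1 (Arhgdib) was called with Cre+ replicates 1 and 2 alone, and 0 of each pathway list elsewhere. The filter on dim probe sets left no probe set of Cybb. The causes of these changes were not tested. Without a detection call, the order of arrays at levels under the added constant (5 of 10 member probe sets, those of Cybb included) is uncertain.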
